A study of Mus musculus with 2 samples.

Results

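The genes described here are the nuclear receptors Nr4a1, Nr4a2 and Nr4a3 and the zinc-finger transcription factors Egr1, Egr2 and Egr3, measured in single cells of the mouse colon lamina propria. They were chosen by symbol, and all 6 symbols were found among the 31053 features of each library. Together they gave 71009 UMIs (unique molecular identifiers, each standing for 1 captured RNA molecule) in the cells kept, or 1718 CPM. Levels below are CPM, the UMIs of a gene per 1000000 UMIs of the same cell class in 1 library. A UMI counts 1 molecule whatever the length of the transcript, so levels of different genes were set side by side without division by length, although capture of the 3' end may differ between genes.

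Both families are immediate early genes, which are transcribed within minutes of a stimulus without new protein synthesis. The Nr4a proteins (Nur77, Nurr1 and Nor1) are orphan nuclear receptors that act without a known physiological ligand, and Nr4a1 is known for its role in the survival of patrolling monocytes and as a readout of antigen receptor signalling in lymphocytes. The Egr proteins bind GC-rich DNA downstream of the ERK pathway and serum response factor. Egr1 is the common early-response member, Egr2 acts in macrophage activation and in the restraint of T and B cells, and Egr3 is best known from antigen receptor signalling.

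To examine these genes after loss of a long non-coding RNA, a wild-type (WT) library was compared with a library labelled as LncRNA17Rik knockout (KO), the gene that the study calls lncLy6c. The KO mice were made on the C57BL/6J background with CRISPR-Cas9 guides placed on either side of the exons, and the libraries were pooled from male mice of 8 weeks. The labels give both samples as cd11b+ cells of gut lamina propria, taken from a Percoll gradient, sorted, and cleared of dead cells by 7-AAD staining. With 1 library per genotype no difference has a replicate check, so no test was made, and all intervals are 95% intervals that cover counting error only.

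The WT library held 3185 barcodes and 22191774 UMIs, of which 2597 cells were kept at a median of 5073 UMIs. The KO library held 3020 barcodes and 23384895 UMIs, of which 2514 cells were kept at a median of 6564.5 UMIs. None of the features is named as the deleted gene in the labels, so the genotype was not checked from its transcripts. Cells were grouped into 13 named classes by marker genes, each class being called "-like", and 8 of them had at least 50 cells in each library. The gate named in the labels was not exclusive. Itgam, which encodes CD11b, was at 256 CPM in WT resident macrophage-like cells and 723 CPM in WT eosinophil-like cells, but at 40.1 CPM in WT B cell-like cells, and B, T and plasma cell-like cells made up 7.74%, 9.32% and 9.05% of WT cells.

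Per the GENCODE M21 annotation (GRCm38), the protein-coding gene Nr4a1 spans chr15:101254269-101274795 (plus strand), Nr4a2 chr2:57106830-57124003 (minus strand), Nr4a3 chr4:48045153-48086447 (plus strand) and Egr2 chr10:67535475-67542188 (plus strand). RefSeq promoter sequence (GRCm38.p6) was read for 4 of the 6 genes, Nr4a1, Nr4a2, Nr4a3 and Egr2, and the 250 bases before each start site were searched on both strands. The motifs were TGACG, the core of the cAMP response element bound by CREB, the full element, which contains that core in both directions and is spelled TGACGTCA, the CArG box of serum response factor, the Egr element GCGNGGGCG, and the Nr4a element AAAGGTCA.

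Each of the 3 Nr4a promoters held 4 copies of TGACG, counted in either direction. At least 1 copy stood in 17.8% of 32544 promoters and at least 4 copies in 0.138% of them. The full TGACGTCA was in none of the searched windows of these genes (1.55% of all promoters), nor was AAAGGTCA (1.35%). The Egr element was found in Nr4a1 and Nr4a2, 1 copy each (4.74% of all promoters). Of the 5 RefSeq start sites of Egr2, 4 had a CArG box (1.48% of all promoters), but these were 2 distinct boxes, since the windows of 3 neighbouring start sites hold the same one. The windows below show the copies nearest the start site for Nr4a1 and Nr4a2, the closest pair of copies for Nr4a3, and for the third Egr2 start site a CArG box with a copy of the core beside it, with capitals marking the core (TGACG, or its reverse complement when it lies on the other strand) or the CArG box, and positions counted from the start site. They lie at chr15:101266765-101266794 and chr15:101266794-101266823 (plus strand, inside the GENCODE span of Nr4a1), chr2:57124130-57124159 and chr2:57124103-57124132 (minus strand, upstream of Nr4a2), chr4:48045088-48045117 (plus strand, upstream of Nr4a3) and chr10:67537793-67537822 (plus strand, inside the GENCODE span of Egr2).
Nr4a1, -81 to -52: ccgggccgtgtgCGTCAgtggcgcccccgc
Nr4a1, -52 to -23: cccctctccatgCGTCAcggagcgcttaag
Nr4a2, -156 to -127: gccggctgcacgCGTCAcggagcccggccg
Nr4a2, -129 to -100: ccgggcTGACGgggccgcTGACGcgcttgg
Nr4a3, -217 to -188: atgtCGTCAcatTGACGtctcgcattccag
Egr2, -76 to -47: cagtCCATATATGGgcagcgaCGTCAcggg

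Nr4a1 (Nur77) was highest in neutrophils and lymphocytes. Among WT classes of at least 50 cells it was at 1018 CPM (885 to 1166) in neutrophil-like cells, 837 CPM in B cell-like cells and 743 CPM in T cell-like cells, and these neighbours overlapped in their intervals. It was lowest in plasma cell-like cells, at 56.5 CPM (49.4 to 64.2). Immunoglobulin genes were among the leading genes of that class, and their UMIs lower its CPM of all other genes. Its 235 WT cells held 232 Nr4a1 UMIs, whereas 199 WT eosinophil-like cells, at 394 CPM, held 73. The macrophage classes stood in the lower part of the WT order, with 298 CPM in resident macrophage-like cells and 377 CPM in inflammatory monocyte-like cells. In the KO library B cell-like cells came first at 830 CPM and T cell-like cells followed at 721 CPM. Inflammatory monocyte-like cells were there at rank 4 of 10, with 453 CPM, and resident macrophage-like cells at rank 9, with 194 CPM. NK cell-like cells, of which there were 26 in WT and 41 in KO, were at 1315 and 767 CPM.

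Nr4a2 (Nurr1) shared T and NK cells with Nr4a1 but was also high in conventional dendritic cells. It was at 1641 CPM (1576 to 1708) in WT T cell-like cells, 908 CPM in cDC2-like cells and 821 CPM in cDC1-like cells, the first of these apart from the rest. The same classes led in KO, at 1098, 614 and 532 CPM. NK cell-like cells were higher still, at 1926 CPM in WT against 2116 in KO. Within T cell-like cells the level differed by cluster: the cluster led by Gzma and Gzmb, cytotoxic granule genes, was at 2185 CPM in WT against 1739.7 in KO, while the cluster led by Icos and Rora was at 554 and 701 CPM.

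Nr4a3 (Nor1) was highest in mature DC-like cells. Mature DC-like cells, 19 in WT and 42 in KO, had 2656 CPM in WT (2410 to 2921) against 1908 in KO (1802 to 2018). In WT this was the highest level of any of the 6 genes in any class, and in KO only Nr4a2 in NK cell-like cells was higher. Among the larger classes, cDC2-like cells led with 980 CPM in WT against 1208 in KO, and T cell-like cells came next with 899 and 1125 CPM. The intervals of these neighbours overlapped. NK cell-like cells were at 1421 and 1567 CPM. In contrast, cDC1-like cells stood sixth in both libraries, at 348 and 339 CPM. WT epithelial-like cells were lowest at 17.7 CPM.

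Egr1, at chr18:34859823-34864984 (plus strand), was the most abundant Egr gene in nearly all classes, and its order was unlike that of the Nr4a genes. WT neutrophil-like, stromal or endothelial-like and epithelial-like cells were at 1082, 1052 and 976 CPM, with overlapping intervals. Resident macrophage-like cells had 532 CPM (501 to 565) in WT. In the KO library that class was first, at 1232 CPM (1168 to 1299). The cDC2-like cells, which were high in Nr4a2 and Nr4a3, were low in Egr1, with 110 CPM in WT against 44.9 in KO, and WT mature DC-like cells were at 18.7 CPM, from 3 UMIs. In cDC1-like cells Egr1 was at 176 and 187 CPM, and the KO value overlapped that of inflammatory monocyte-like cells.

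Egr2 was rare everywhere. Among classes of at least 50 cells it ranged from 3.16 CPM in WT plasma cell-like cells to 49.0 CPM in WT neutrophil-like cells, the latter from 10 UMIs, and in the KO library from 9.19 CPM in cDC2-like cells to 62.2 CPM, from 5 UMIs, in the unnamed cluster led by Gm26917 and Ccnb1ip1. Nearly all neighbours in these orders overlapped. Of the smaller groups, WT mature DC-like cells had 0 UMIs of Egr2, which allows up to 18.7 CPM, KO mature DC-like cells had 1 UMI, and the 21 WT cells of the cluster led by Retnla and Mgl2 were at 53.3 CPM from 10 UMIs.

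Egr3, at chr14:70077203-70082614 (plus strand), was concentrated in B cells. It was at 297 CPM in WT (260 to 337) against 183 in KO (143 to 230) B cell-like cells, and in both libraries the interval was apart from that of the next class, neutrophil-like cells at 117 and 53.6 CPM. The macrophage classes were near the bottom, with 14.4 CPM in WT resident macrophage-like and 10.3 CPM in WT inflammatory monocyte-like cells.

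**Figure D1:**
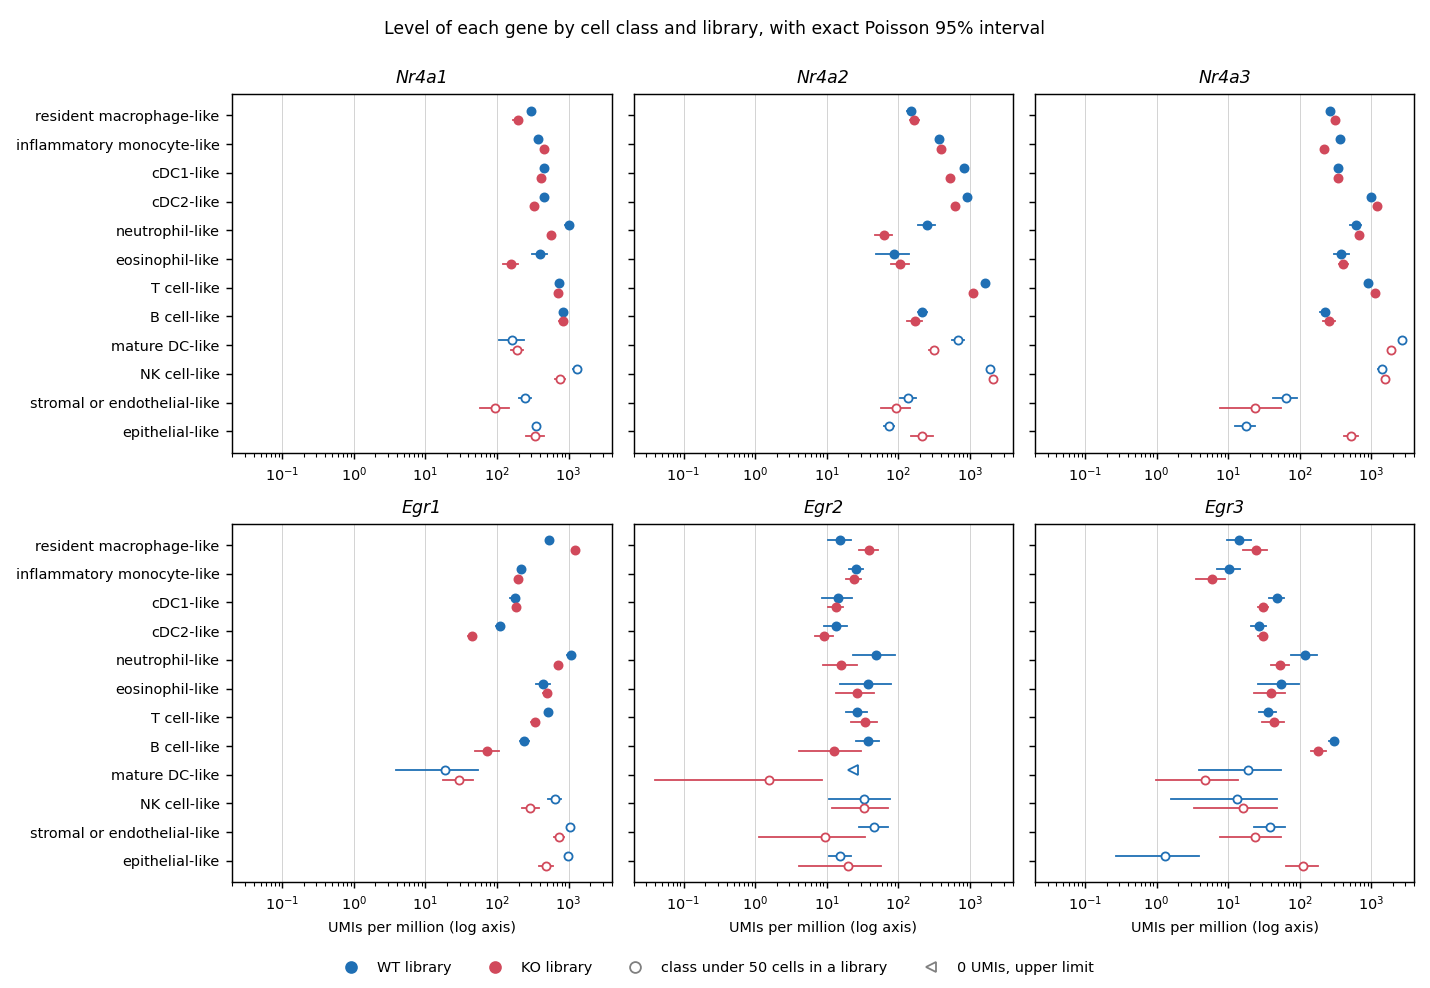
Level of each gene (CPM, log axis) in 12 cell classes of the WT and KO libraries; lines are exact Poisson 95% intervals, open points are classes with fewer than 50 cells in a library, and the open triangle is the upper limit of a class with 0 UMIs. Nr4a2 is high in T and NK cells, Nr4a3 in mature and cDC2-like dendritic cells, Egr3 in B cells, and Egr1 in KO resident macrophage-like cells (1232 CPM against 532 CPM in WT).

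Within a class, the families differed in which member they used. Nr4a1 made up 65.5% (62.5 to 68.4%, Clopper-Pearson) of Nr4a UMIs in WT B cell-like cells and 66.1% in KO. Nr4a3 made up 75.9% (72.1 to 79.4%) in WT mature DC-like cells and 79.2% in KO. Nr4a2 was the leading member in cDC1-like cells, with 50.4% in WT and 41.4% in KO, and in NK cell-like cells, with 41.3% and 47.6%. Inflammatory monocyte-like cells of the WT library were even, with 34.0%, 33.4% and 32.7% from Nr4a1, Nr4a2 and Nr4a3.

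Egr1 gave most of the Egr UMIs in 7 of the 8 larger classes, B cell-like cells being the exception, although in KO cDC2-like cells it gave 53.1% and Egr3 36.0%. In resident macrophage-like cells Egr1 gave 94.7% of Egr UMIs in WT and 95.1% in KO, so that Egr1 had 34.6 times the UMIs of Egr2 in WT (24.2 to 51.2) and 31.9 times in KO (23.6 to 44.3). In B cell-like cells Egr3 was the larger part, 51.7% (47.1 to 56.4%) in WT and 67.9% (58.2 to 76.7%) in KO. Egr2 had its highest shares among the larger classes in inflammatory monocyte-like and cDC2-like cells, at 10.1% and 8.97% in WT and 10.6% and 10.9% in KO.

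The balance between Egr1 and Nr4a1 also separated the macrophage classes. Egr1 had 1.79 times the UMIs of Nr4a1 (1.62 to 1.98) in WT resident macrophage-like cells, but 0.574 times (0.521 to 0.633) in WT inflammatory monocyte-like cells. In KO these were 6.35 times (5.50 to 7.37) and 0.430 times (0.391 to 0.472). Egr1 was thus above Nr4a1 in resident macrophage-like cells and below it in inflammatory monocyte-like cells in both libraries. The whole families did not divide this way. In resident macrophage-like cells Nr4a was above Egr in WT (712 against 562 CPM) and below it in KO (677 against 1295 CPM). In inflammatory monocyte-like cells Nr4a was above Egr in both, at 1111 against 253 CPM in WT and 1069 against 224 CPM in KO.

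**Figure D2:**
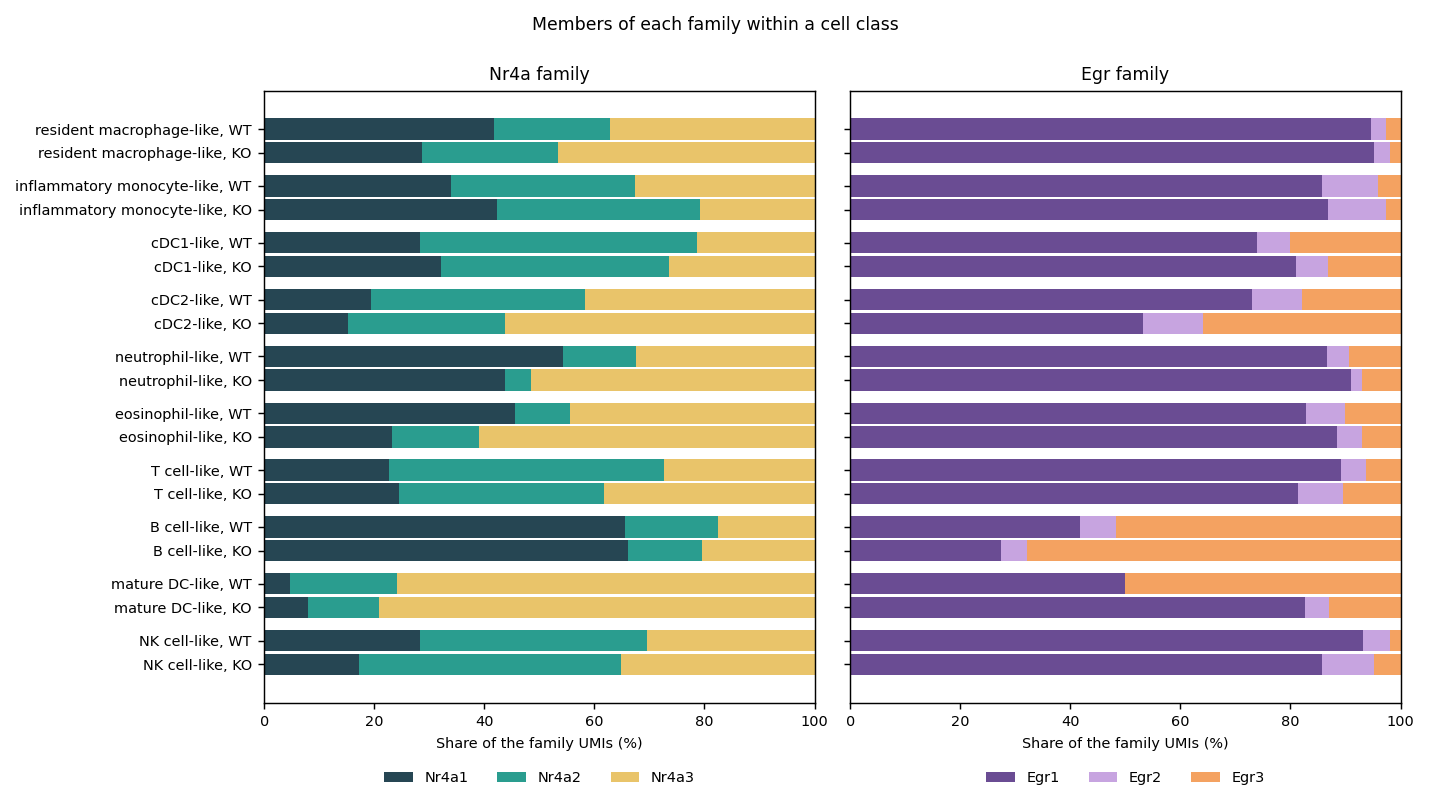
Share of each member in the UMIs of its family (%), by cell class and library. Nr4a1 fills most of the B cell-like bars (65.5% in WT) and Nr4a3 most of the mature DC-like bars (75.9% in WT); Egr1 is the longest part of the Egr bars except in B cell-like cells, where Egr3 is 51.7% in WT and 67.9% in KO, and in WT mature DC-like cells, which hold 6 Egr UMIs, and it is shorter in KO cDC2-like cells (53.1%) than in WT (73.1%).

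To compare genotypes, the KO level was set against the WT level within each class, and the log2 ratio is given with its exact conditional binomial interval. The median ratio of all genes was below 0 in 7 of the 8 larger classes, at -0.18 in inflammatory monocyte-like and -0.20 in resident macrophage-like cells, so a ratio near these values is where the typical gene lay. At a 2-fold limit, with 1 CPM added to both levels and at least 20 UMIs, 2 of 47 gene and class pairs were higher in KO and 7 of 47 were lower, where 3.68% and 8% of the pairs of all genes with these classes were.

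In resident macrophage-like cells (326 WT and 135 KO cells), Egr1 was at 532 CPM in WT, from 1073 UMIs, and at 1232 CPM in KO, from 1372 UMIs, a log2 ratio of 1.21 (1.09 to 1.33). Egr2 was at 15.4 CPM in WT against 38.6 in KO, from 31 and 43 UMIs, a ratio of 1.33 (0.63 to 2.04). These were the 2 pairs past 2-fold upwards, where 3.67% of 8245 genes passed that limit in the class. Egr3 was at 14.4 and 24.2 CPM, and its interval included 0 (0.75, -0.06 to 1.56).

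The Egr1 difference was present in the number of cells as well as in the level. When each cell was thinned to 2000 UMIs and shallower cells were left out, 38.2% (32.1 to 44.5%) of 249 WT cells and 64.6% (55.0 to 73.4%) of 113 KO cells had an Egr1 UMI. Without thinning the shares were 51.2% and 76.3%. No class is known to lack Egr1, and the share at equal depth was 11.7% in WT plasma cell-like cells, which are deeper (median 17793 UMIs, against 5109.5 in WT and 6864 in KO resident macrophage-like cells). Immunoglobulin UMIs count toward the 2000 in plasma cell-like cells, and 235 of them held 362 Egr1 UMIs, so that share is no empty background. In resident macrophage-like cells a few cells carried much of the Egr1, since the 5 highest cells held 20.6% of the WT and 31.6% of the KO UMIs.

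The size of this difference varied with how the cells were classed. The ratio of the Egr family in resident macrophage-like cells was 1.20 (1.09 to 1.32), but 0.27 at a finer clustering and 0.14 when each library was clustered alone, where the class held 281 WT and 323 KO cells. Egr1 itself was at 0.20 and 0.064 under these 2 alternatives. Under a stricter cell filter the Egr family ratio was 0.58, but the clusters were redrawn as well, and the class then held 102 WT and 99 KO cells. Other markers also differed between the libraries in this class. The summed level of the 9 inflammatory monocyte markers was 1264 CPM in WT against 292 in KO, with all 9 detected in each, and that of the 6 cDC2 markers was 170 and 521 CPM, with all 6 detected. Igkc, an immunoglobulin light chain gene made by B-lineage cells, was at 817 CPM in WT against 21.6 in KO. The part of these in the Egr1 difference was not tested.

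The Nr4a family as a whole was level in resident macrophage-like cells, at 712 CPM in WT against 677 in KO (-0.07, -0.20 to 0.06). Its members were not alike. Nr4a1 was at 298 CPM in WT against 194 in KO, a ratio of -0.62 (-0.85 to -0.39), although the share of cells with a UMI at equal depth was 34.1% in WT and 33.6% in KO. Nr4a2 was at 149 and 168 CPM, with an interval that included 0 (0.17, -0.10 to 0.44), and its ratio ran from -0.49 to 0.49 under 11 alternatives. Nr4a3 was at 265 and 315 CPM (0.25, 0.05 to 0.45), the share at equal depth was 38.2% and 38.1%, and 5 cells held 41.0% of the KO UMIs. Nr4a3 went to -0.18 when cells with the highest doublet scores were removed. None of the Nr4a genes passed 2-fold in this class as reported, where 8.21% of genes did so downwards. Under 11 alternatives the Nr4a1 ratio ran from -1.01 to -0.36.

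**Figure D3:**
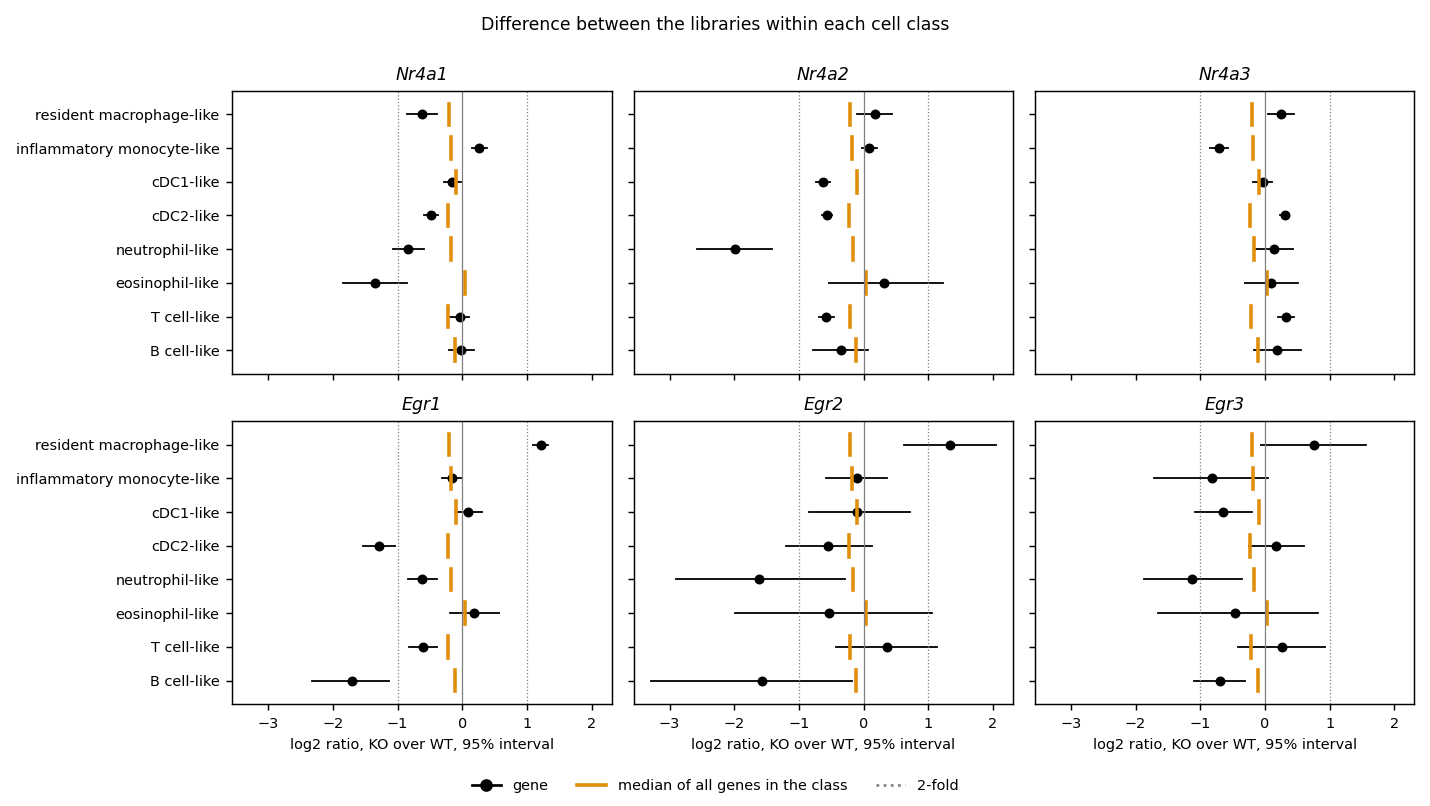
KO over WT log2 ratio of each gene in the 8 larger classes; points are the ratio, black lines its 95% counting interval, orange ticks the median of all genes in the class, and dotted lines 2-fold. Egr1 (1.21) and Egr2 (1.33) lie above 2-fold in resident macrophage-like cells, while Egr1 lies below it in B cell-like (-1.70) and cDC2-like cells (-1.29).

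In inflammatory monocyte-like cells (481 WT and 373 KO cells) no member passed 2-fold in either direction, where 2.74% of genes passed upwards and 7.23% downwards. Nr4a1 was at 377 CPM in WT against 453 in KO (0.26, 0.15 to 0.38), but its ratio was -0.12 when cells were classed by marker score. Nr4a2 was at 371 and 394 CPM (0.09, -0.03 to 0.21). Nr4a3 was at 363 and 222 CPM (-0.71, -0.85 to -0.58), and under 11 alternatives its ratio ran from -0.78 to -0.077. Egr1 was at 217 and 194 CPM and Egr2 at 25.6 and 23.7 CPM, both with intervals that included 0. Egr3 was at 10.3 and 5.86 CPM from 31 and 19 UMIs, and its interval included 0 too. The 8 resident macrophage markers, all detected, summed to 3697 CPM in WT against 1792 in KO, the 7 mature DC markers, all detected, to 338 and 82.3 CPM, and Igkc was at 735 and 17.3 CPM. Their part in these differences was not tested.

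The class was made up of different clusters in the 2 libraries. A cluster led by Ly6i and Cxcl9, interferon-inducible genes, held 402 of the 481 WT cells and 33 of the 373 KO cells, and a cluster led by Chil3 and Ace held 48 and 299. Within the first, Nr4a3 was at 345 CPM in WT against 345 in KO, and within the second at 172 and 195 CPM, so the difference of the class was not seen inside its main clusters. It was seen in a small cluster with Rsad2, an interferon-inducible gene, among its leading genes (31 WT and 41 KO cells), at 716 and 334 CPM. Nr4a1 was at 365 CPM in WT against 204 in KO in the first, at 422 and 498 CPM in the second, and at 436 and 285 CPM in the small cluster. Egr1 was lower in KO in both, with 200.4 and 88.1 CPM in the first and 350 and 197 CPM in the second, but not in the small cluster, with 214 and 251 CPM.

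With inflammatory monocyte-like and resident macrophage-like cells pooled as one macrophage lineage, Nr4a1 was at 345 CPM in WT against 387 in KO (0.16, 0.07 to 0.26), and the Nr4a family at 951 and 968 CPM (0.03, -0.03 to 0.09). The Egr family was at 377 and 498 CPM (0.40, 0.31 to 0.49). This direction turned when a cluster led by Retnla and Mgl2, with 21 WT and 263 KO cells, was counted in the lineage, a choice made after seeing the data, which gave -0.13, and also when clusters were built on 4000 variable genes (-0.36), which left 327 WT and 479 KO cells in the lineage, against 807 and 508. That cluster was kept unnamed because its top 10 genes held 1 monocyte marker (Fn1) and 1 cDC2 marker (Mgl2), and its KO cells had 921 CPM of Nr4a3 and 85.8 CPM of Egr1.

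Outside macrophages the Egr family interval lay below 0 in 4 of the 6 other classes. In B cell-like cells Egr1 was at 239 CPM in WT against 73.6 in KO (-1.70, -2.32 to -1.13), and 28.8% of WT and 9.52% of KO cells had a UMI at equal depth. Egr2 was at 37.6 and 12.7 CPM there, from 30 and 5 UMIs. Egr3 was at 297 and 183 CPM (-0.70, -1.10 to -0.31). Egr1 and Egr2 made 2 pairs past 2-fold downwards, in a class where 10.4% of genes passed, and none went past it upwards, as 1.83% of genes did. Markers of other cells also differed in this class. The summed level of the 7 neutrophil markers was 911 CPM in WT, with 6 detected, against 17.8 in KO, with 3 detected, and Ly6g was at 0 in both. Igha, an immunoglobulin heavy chain gene of plasma cells, was at 1334 and 135 CPM. Their part in the Egr differences was not tested.

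In contrast, the Nr4a family hardly differed in B cell-like cells. Nr4a1 had 837 CPM in WT against 830.1 in KO (-0.01, -0.21 to 0.18), and 65.9% and 70.2% of cells had a UMI at equal depth. The family ratio was -0.02 (-0.18 to 0.13), against -1.09 (-1.41 to -0.79) for the Egr family.

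In T cell-like cells no member passed 2-fold, where 4.56% of genes did so upwards and 13.4% downwards. Nr4a2 was at 1641 CPM in WT against 1098 in KO (-0.58, -0.70 to -0.46), with 72.3% and 70.4% of cells positive at equal depth. The cluster led by Gzma, which was high in Nr4a2, held 138 of 242 WT cells and 32 of 110 KO cells. Its Nr4a2 was lower in KO, as given above, whereas the clusters led by Icos and by Lef1 had more Nr4a2 in KO, the latter with 675 and 1087 CPM. Nr4a3 went the other way, at 899 and 1125 CPM (0.32, 0.20 to 0.45). Egr1 was at 514 and 338 CPM (-0.60, -0.82 to -0.39). The 9 inflammatory monocyte markers summed to 957 CPM in WT against 383 in KO T cell-like cells, with Vcan at 0 in both, the 6 plasma cell markers to 1031 and 107 CPM, and Igkc was at 3827 and 29.8 CPM. Their part in these differences was not tested.

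Conventional dendritic cells had less Nr4a2 in KO. It was at 821 and 532 CPM in cDC1-like cells (-0.63, -0.73 to -0.52) and at 908 and 614 CPM in cDC2-like cells (-0.57, -0.64 to -0.49). Nr4a3 was at 980 CPM in WT against 1208 in KO cDC2-like cells (0.30, 0.24 to 0.37), with 67.2% and 80.1% of cells positive at equal depth, and did not differ beyond counting error in cDC1-like cells. The 7 mature DC markers, all detected, summed to 866 CPM in WT against 1055 in KO cDC2-like cells. Their part in the Nr4a3 difference was not tested. Egr1 was the cDC2-like member past 2-fold downwards, at 110 CPM in WT against 44.9 in KO (-1.29, -1.54 to -1.04), where 7.21% of genes passed downwards and 2.43% upwards. In the same class the 9 inflammatory monocyte markers summed to 2085 CPM in WT, with Vcan at 0, against 888 in KO, and the 8 resident macrophage markers to 493 and 235 CPM, with Mertk at 0 in both. Their part in the Egr1 difference was not tested. The cDC1-like class drew on unlike clusters, since a cycling cluster led by Pclaf and Top2a held 28 WT and 105 KO cells and a shallow one 57 and 19. Nr4a2 was lower in KO in the cycling cluster (671 and 479.6 CPM) and in the main cluster led by Xcr1 (941 and 584 CPM), but not in the shallow one (412 and 1056 CPM). The shallow cluster had medians of 640 UMIs in WT and 750 in KO, so its values rest on few UMIs. In cDC1-like cells the 9 inflammatory monocyte markers summed to 1556 CPM in WT, with Vcan at 0, against 789 in KO, the 7 neutrophil markers to 9.10 and 181 CPM, with Ly6g at 0 in both, and Igkc was at 429 and 12.7 CPM. Their part in the Nr4a2 difference was not tested. No cDC1-like member passed 2-fold, upwards or downwards, where 3.32% and 2.49% of genes did.

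Granulocytes gave the remaining pairs. In neutrophil-like cells (80 WT and 268 KO), Nr4a1 was at 1018 and 571 CPM (-0.83, -1.07 to -0.59) and Egr1 at 1082 and 704 CPM (-0.62, -0.84 to -0.39). Nr4a2, Egr2 and Egr3 were past 2-fold downwards there, where 12.9% of genes passed downwards and 6.5% upwards. Nr4a2 rested on 51 WT UMIs, of which 5 cells held 92.2%, so no difference was read from it. Its share at equal depth was 11.8% in WT and 7.53% in KO, against 9.46% in WT plasma cell-like cells. Those plasma cell-like cells are not an empty background, since 235 of them held 232 Nr4a2 UMIs. Egr3 was at 117 and 53.6 CPM from 24 and 47 UMIs, and Egr2 had 10 and 14 UMIs. Nr4a3 did not follow, at 607 and 672 CPM (0.15, -0.13 to 0.44). In this class the 7 neutrophil markers, all detected, summed to 42955 CPM in WT against 76764 in KO, the 8 resident macrophage markers to 920 and 411 CPM, with Mertk at 0 in both, and Igkc was at 1009 and 19.4 CPM. Their part in these differences was not tested.

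In eosinophil-like cells Nr4a1 had 394 CPM in WT against 155 in KO (-1.35, -1.84 to -0.85), past 2-fold, where 5.66% of genes passed downwards and 7.98% upwards. These cells were shallow, with medians of 755 and 970.5 UMIs, and the values rest on 73 and 71 UMIs. The 8 resident macrophage markers summed to 599 CPM in WT against 144 in KO, with Mertk at 0 in both, and Igkc was at 4198 and 28.4 CPM. Their part in the Nr4a1 difference was not tested. Nr4a3 and Egr1 had intervals that included 0, at 383 and 408 CPM and at 442 and 502 CPM.

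**Figure D4:**
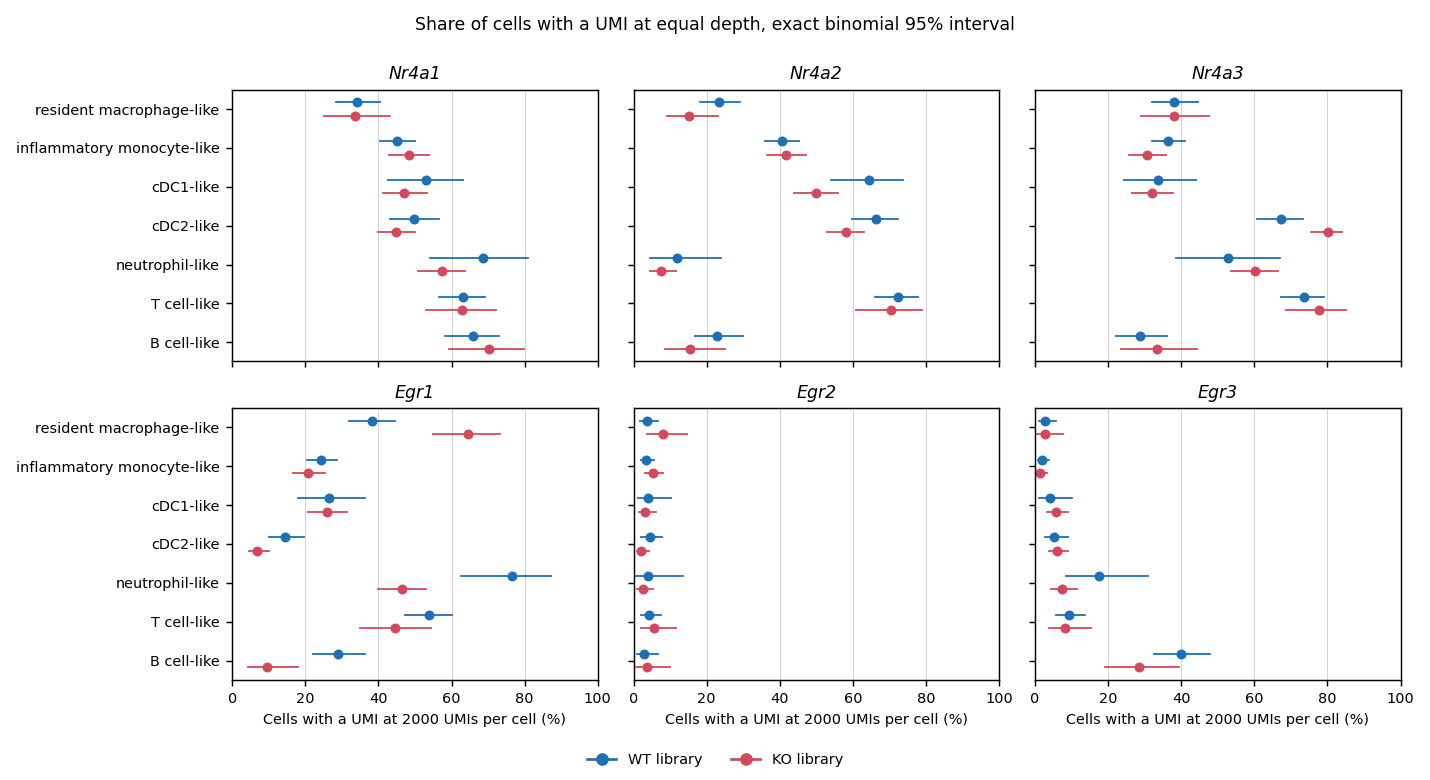
Share of cells with at least 1 UMI of each gene after every cell was thinned to 2000 UMIs (%), for the 7 larger classes in which over 50 cells per library remained; lines are exact binomial 95% intervals. Egr1 is set apart between the libraries in resident macrophage-like cells (38.2% in WT, 64.6% in KO) and in B cell-like cells (28.8% and 9.52%), while Nr4a1 in resident macrophage-like cells is not (34.1% and 33.6%).

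Counted over the 8 larger classes, the Nr4a family interval lay below 0 in 5 classes and above 0 in none, with ratios from -0.52 to -0.02. Against the median of all genes in each class, however, its interval lay below in 3 classes and above in 3. The Egr family interval lay below 0 in 5 classes and above 0 in 1, the resident macrophage-like class. Against the class medians these were 4 and 1, since inflammatory monocyte-like cells (-0.17) lay at their median. Over all cells of a library the picture was different. Nr4a3 was at 380 CPM in WT against 721 in KO (0.92, 0.88 to 0.96), although no larger class had a ratio above 0.32. In the cluster led by Retnla and Mgl2 its ratio was 0.97 (0.67 to 1.30), from 88 WT and 3189 KO UMIs. The makeup of the libraries differed: cDC2-like cells were 9.24% of WT and 15.4% of KO cells, the cluster led by Retnla and Mgl2 was 0.809% and 10.5%, and plasma cell-like cells, at 53.8 CPM of Nr4a3 in WT, were 9.05% and 0.199%. Egr1 over all cells was at 358 and 224 CPM (-0.68, -0.73 to -0.62), the opposite of its direction in resident macrophage-like cells.

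Single cells set some values in the smallest classes. The 17 KO epithelial-like cells were at 527 CPM of Nr4a3 against 17.7 CPM in 123 WT cells, but 50 of the 80 KO UMIs were in 1 cell, and all 17 Egr3 UMIs of that class were in 1 cell. No comparison was drawn from these cells or from the 5 KO plasma cell-like cells.

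The surrounding pathway was described from gene lists, with 1 CPM added to both levels in each ratio. Of 27 other immediate early genes, 1 was past 2-fold higher in KO resident macrophage-like cells and 2 lower, a share near that of all genes (3.67% and 8.21%), with a median ratio of -0.06 against -0.20 for all genes. The higher one was Atf3, a stress-induced transcription factor, at 307 CPM in WT against 874 in KO (1.51). Dusp2, a nuclear MAP kinase phosphatase, was at 391 and 158 CPM (-1.30), and Klf10, a zinc-finger factor, at 93.2 and 41.3 CPM (-1.16). Among inflammatory monocyte-like cells 1 of 27 was higher, Fosl1, an AP-1 subunit, at 23.9 and 96.8 CPM (1.97), and none was lower, against 2.74% and 7.23% of all genes, and the median was -0.18, as for all genes. The lowest ratios there were those of the MAP kinase phosphatases Dusp5 (-0.88) and Dusp2 (-0.87).

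Of 19 genes known to respond to tissue dissociation, 10 of which also stand on the immediate early list, 4 were past 2-fold higher in KO resident macrophage-like cells and none lower, against 3.67% and 8.21% of all genes, with a median of 0.17. Hspa1b and Hspa1a, heat shock proteins, were at 372 and 1375 CPM (1.88) and at 423 and 1410 CPM (1.73). The AP-1 gene Junb did not share this direction, at 3883 and 2625 CPM (-0.57), nor did Fos, at 1142 and 944 CPM (-0.28). Fosb, another AP-1 gene of the list, did share it, at 682 and 999 CPM (0.55). The same heat shock genes were higher in KO inflammatory monocyte-like cells (1.82 and 1.63), where Egr1 was not. Of the 18 dissociation genes measured there, 2 were past 2-fold higher and none lower, against 2.74% and 7.23% of all genes. Their part in the Egr1 difference was not tested.

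The ERK pathway, which induces Egr genes, gave no gene past 2-fold among 14 measured of 17 in resident macrophage-like cells (median -0.12) or among 15 in inflammatory monocyte-like cells (median -0.10). Since 3.67% of all genes were higher and 8.21% lower in the first class, and 2.74% and 7.23% in the second, nothing was read from this count in lists so short. Mapk3, which encodes ERK1, was at 115 and 65.5 CPM (-0.80) in the first class and at 98.8 and 59.5 CPM (-0.72) in the second. Spred1, an inhibitor of Ras-ERK signalling, was at 99.7 and 176 CPM (0.81) in resident macrophage-like cells.

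Partners and corepressors other than Nab1 were sparse. Nab2, a corepressor that Egr factors induce, was at 14.9 CPM in WT against 30.5 in KO resident macrophage-like cells (0.99), from 30 and 34 UMIs, and Nab1 at 139 and 101 CPM (-0.45). Among inflammatory monocyte-like cells neither Nab1 (0.01) nor Nab2 (-0.27) differed beyond counting error. Rxrb, a retinoid X receptor with which Nr4a1 and Nr4a2 can pair, was at 35.7 and 26.0 CPM (-0.44) in resident macrophage-like cells, with an interval that included 0. Of 5 measured genes of antigen receptor activation, Ctla4, an inhibitory receptor of T cells, was past 2-fold lower in that class, from 47 and 6 UMIs, where 8.21% of all genes were. In inflammatory monocyte-like cells 1 of 5 was higher and 2 were lower (2.74% and 7.23% of all genes), among them the early activation marker Cd69, at 144 CPM in WT against 61.6 in KO (-1.21).

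The genes whose pattern was most like each member were sought over 22 class and library profiles of at least 50 cells, among 9485 genes, by the Pearson correlation of log2(CPM + 10). These are descriptions, since the profiles share 2 libraries and their depths. For Nr4a1 they were Aff1 (0.78), Chd4 (0.77) and Slc44a2 (0.76), and for Nr4a2 the NK and T cell receptor Klrd1 (0.83) and Cdc37 (0.82). Nr4a3 was followed by Dennd4a, the NF-kappaB subunit Nfkb1 and the kinase Jak2 (0.84, 0.84 and 0.83). Egr1 was followed by the small GTPase Rhob (0.80), Eea1 (0.76) and Itsn1 (0.76), Egr2 by Ski (0.80), Nufip2 and Trpm7, and Egr3 by Ubap2l (0.80), Ago2 and Ddx6. Between members, the highest values were Nr4a1 with Egr3 (0.61), Egr1 with Egr2 (0.61) and Nr4a2 with Nr4a3 (0.59), and Egr1 had negative values with Nr4a2 (-0.27) and Nr4a3 (-0.29).

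**Figure D5:**
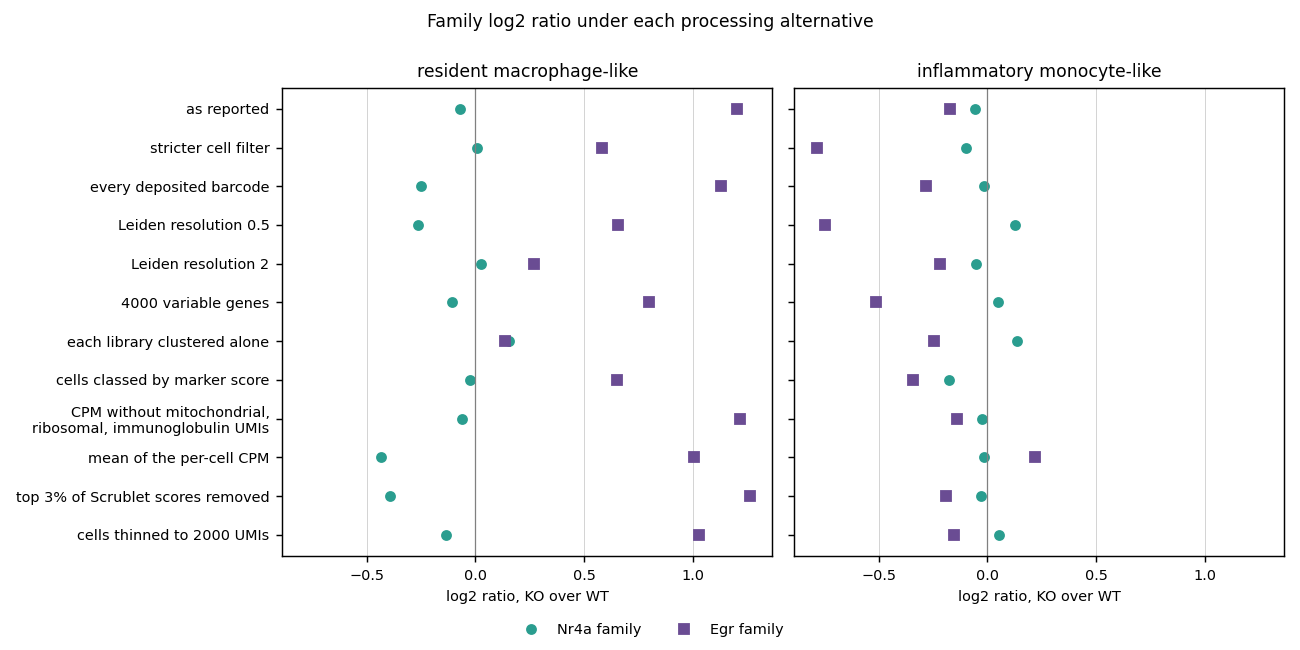
KO over WT log2 ratio of the Nr4a family (circles) and the Egr family (squares) in inflammatory monocyte-like and resident macrophage-like cells, as reported and under each of 11 processing alternatives. In resident macrophage-like cells every Egr family value is above 0, from 0.14 to 1.26, while the Nr4a family lies between -0.44 and 0.15.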

How the data were processed

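Colon lamina propria cells of 1 WT and 1 KO library were analysed. The authors deposited raw UMI counts per gene and barcode for each library, made from 10x Genomics 3' libraries with Cell Ranger 3.0.2 per the file headers, and the submitters' processing notes name mm10 and Seurat 4. The study states more cells of each genotype than the deposited barcodes, far more for WT, and the difference was not analysed here. The authors' published cell filter was applied here: 200 to 6000 genes and at most 15% mitochondrial UMIs, removing 18.5% of the WT barcodes and 16.8% of the KO barcodes. The libraries shared 1 barcode, which was not among the cells kept. Only the gene limit of that filter stood against doublets. Scrublet called 1 WT and 9 KO cells, too few for its calls to be used, and removal of the top 3% of its scores was an alternative.

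Each cell was scaled to 10000 counts before the log transform (Python 3.11.15 with leidenalg 0.10.2, scanpy 1.11.5 and scikit-learn 1.9.0). The 77 list and member genes that are not markers were kept out of 2000 variable genes, and 30 principal components, 15 neighbours and Leiden resolution 1 gave 21 clusters. The study clustered with DESC, so class differences from the study may come from these rebuilt names. Clusters were named for the class with most of its markers raised (2-fold with a prior of 10 CPM, in 10% of cells, at least 3 markers), and stayed unnamed where another class had as many markers as its own among the top 10 genes. This last rule was chosen once a first clustering was known. It left the cluster led by Retnla and Mgl2 unnamed, and the cluster led by Gm26917 and Ccnb1ip1 had too few raised markers for a name. CPM intervals are exact Poisson, and shares have Clopper-Pearson intervals. The named genes are the 6 members in all classes, the 2 highest and 2 lowest ratios of each list (prior of 1 CPM, at least 50 UMIs) in the monocyte and resident classes, and for each member the 3 genes most alike among those with at least 200 UMIs. Fosb is given besides these because its direction differed from that of Junb and Fos. The members and lists were chosen with earlier results of these data known. Scripts were tested on simulated data. Alternatives covered the cell filter, clustering, classing, scaling, doublets, depth and fold limit. The choice to add the cluster led by Retnla and Mgl2 to the macrophage lineage was made after seeing the data. Some genes that the naming rules selected are not reported here.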

Additional observations from a re-analysis of the deposited data

Results flagged for a closer look

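The KO to WT log2 ratios of 3 results pointed opposite ways in inflammatory monocyte-like and resident macrophage-like cells. The resident minus monocyte difference was -0.88 for Nr4a1, 0.96 for Nr4a3 and 1.38 for the Egr family. No test of these differences was possible with 1 library per genotype, so they were not tested, and the 2 libraries filled the monocyte class from different clusters, of which the largest in WT, led by Ly6i and Cxcl9, had 345 CPM of Nr4a3 in both libraries and 365 CPM of Nr4a1 in WT against 204 in KO, the direction of the resident macrophage-like class.

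Barcodes that the cell filter removed, 588 in WT and 506 in KO, also held these transcripts, and no comparison above uses them. The Nr4a family was at 294 CPM in WT against 889 in KO barcodes, and the Egr family at 709 and 556 CPM. Median mitochondrial shares were 52.8% and 29.8% and median depths 2004 and 1162 UMIs. Egr1 made up most of the WT Egr UMIs there (692 CPM), and Nr4a3 was at 25.3 CPM in WT against 301 in KO.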

How the results depend on the processing

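No paired analysis was possible because each genotype has 1 library, and no library could be left out. Of 272 values recomputed under alternatives, shares of cells aside, 166 stayed within counting error, 100 moved beyond it and 6 reversed. A ratio was called reversed only when its sign changed and its reported interval excluded 0. Sign changes of ratios whose interval included 0 therefore stand among the other counts. The numbers of pairs past 2-fold were judged by their relative change, not by counting error. The cause of each shift was not tested. The Egr family ratio in resident macrophage-like cells (1.20) was above 0 in all 11 alternatives: 0.58 with a stricter cell filter, 0.65 at Leiden resolution 0.5 and by marker score, 0.27 at resolution 2, 0.80 with 4000 variable genes, 0.14 with libraries clustered alone, 1.01 as a mean of per-cell CPM and 1.03 after thinning. The class was not the same set of cells throughout. At resolution 0.5 it held 845 WT and 319 KO cells, against 326 and 135 as reported. For inflammatory monocyte-like cells (-0.17) the values were -0.79 with the stricter filter, -0.75 at resolution 0.5, -0.51 with 4000 genes, -0.34 by marker score and, reversed, 0.22 as a per-cell mean, where the first 3 rest on 78, 68 and 51 WT cells, against 481 as reported. In the lineage (0.40) it was 0.22 with the stricter filter, 0.14 and 0.12 at resolutions 0.5 and 2, 0.082 with libraries alone, 0.15 by marker score and, reversed, -0.36 with 4000 genes and -0.13 with the cluster led by Retnla and Mgl2, an alternative chosen after seeing the data. The Nr4a family in resident macrophage-like cells (-0.07) was -0.25 over every barcode, -0.26 at resolution 0.5, 0.15 with libraries alone, -0.44 as a per-cell mean and -0.39 without high doublet scores. For inflammatory monocyte-like cells (-0.06) the values were 0.13 at resolution 0.5, 0.049 with 4000 genes, 0.054 after thinning, 0.14 with libraries alone and -0.18 by marker score. In the lineage (0.03) it was 0.40 with 4000 genes, 0.10 with libraries alone, -0.045 by marker score and 0.33 with the added cluster. Nr4a1 reversed in inflammatory monocyte-like cells by marker score (-0.12), and Nr4a3 in resident macrophage-like cells as a per-cell mean (-0.012) and without high doublet scores (-0.18).

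The Nr4a1 share of Nr4a UMIs in the WT lineage (36.3%) was 40.6% with 4000 genes, 41.8% as a per-cell mean and 39.2% after thinning. In KO (39.9%) it was 34.9% at resolution 0.5, with libraries alone and by marker score, 35.1% at resolution 2, 46.2% as a per-cell mean, 44.2% after thinning and 27.1% with the added cluster. The Egr1 share of Egr UMIs in the WT lineage (91.1%) was 95.1% with 4000 genes and 93.2% after thinning. In KO (92.3%) it was 88.8% at resolution 0.5, 88.6% at resolution 2, 89.05% with libraries alone, 88.7% by marker score and 85.9% with the added cluster. Of the pairs past 2-fold, the 2 higher became 1 at resolution 0.5, with 4000 genes, with libraries alone, by marker score and after thinning, and the 7 lower became 4 without high doublet scores and after thinning and 16 at a 1.5-fold limit. Alternatives on an intermediate macrophage cluster gave no value because the reported clustering had none, although with the stricter filter most of the 826 WT lineage cells were classed as intermediate. Egr2 and Egr3 had at most 77 UMIs in either macrophage class of a library, which limits them.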
